A study of Mus musculus with 6 samples.

Results

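The genes *P2ry12*, *P2ry13*, *Tmem119*, *Cx3cr1*, *Sall1*, *Gpr34*, *Olfml3*, *Fcrls*, *Csf1r* and *Sparc*, which are used as markers of resting (homeostatic) microglia, were followed by name in RNA-Seq of cells sorted from the injured mouse retina. They were 10 of the 55573 genes of the count table, and all 10 were among the 20241 genes tested. The libraries came from adult C57BL/6J mice of both sexes, with no transgene named. An adeno-associated virus (AAV2) carrying *GFP* (control group) or *Ezh2* was injected into the vitreous, and AAV2 can enter retinal cells other than retinal ganglion cells (RGCs). Optic nerve crush (ONC) followed 2 weeks later in every animal of both groups, so no uninjured cells are compared here, and cells were collected 3 days after the crush. Sorting was for CD90.2, the product of *Thy1*, which mouse T cells also carry, with dead cells gated out, and the viral promoter and the number of animals per library are not given in the sources used here. Each group had 3 libraries. Ezh2 replicates 1 and 2 were compared with the 3 GFP libraries. Ezh2 replicate 3 is shown apart, since the study excluded 1 Ezh2 library and plots replicates 1 and 2.

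Microglia are the resident macrophages of the retina and brain. In the healthy tissue they survey their surroundings with fine processes and express a set of surface receptors that sense nucleotides, chemokines and growth factors, among them P2ry12, Cx3cr1 and Csf1r. After nerve injury or in disease, microglia are known to lower part of this resting set and to turn on phagocytic and lipid-handling genes such as *Spp1* and *Gpnmb*, and macrophages from the blood or from the borders of the tissue can enter.

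Total counts per library ranged from 30569933 to 35971192. *Ezh2*, the gene of the histone H3 methyltransferase in the Polycomb complex PRC2, was 32.1 ± 2.99 CPM (counts scaled to a common library total; SD, n = 3) in the control group, 71.7 ± 9.02 CPM (SD, n = 2) in Ezh2 replicates 1 and 2, and 104.8 CPM in Ezh2 replicate 3. The labels call the samples RGCs, yet the defining RGC gene *Pou4f2* averaged 0.0428 ± 0.037 CPM (SD, n = 3) in the control group, below the 0.0834 CPM or more that a count of 3 gives. It was the lowest of the RGC markers listed. The others averaged between 0.331 CPM (*Pou4f1*) and 90.1 CPM (*Thy1*) in the control group. *Glul*, the glutamine synthetase of Müller glia, averaged 2936 RPKM (CPM per kilobase of exon) in the control group, against 2.65 RPKM for the RGC gene *Rbpms* and 116 RPKM for *Tyrobp*, a signaling adaptor of myeloid cells. In Ezh2 replicate 3 the summed level of 11 T cell markers was 1121 CPM, against 502 to 538 CPM in the control group and 641 to 668 CPM in the other Ezh2 libraries. In such bulk samples, fewer cells of a type and less RNA per cell cannot be told apart.

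The member genes were detected in every library, with at least 253 counts each. Per exon length in the control group, *Sparc* ranked first at 358 ± 5.18 RPKM (SD, n = 3), followed by *Csf1r* at 89.4 ± 4.31 RPKM (SD, n = 3). *Cx3cr1* and *Tmem119*, at 40.9 and 39.6 RPKM, came next and overlapped in range between control libraries. *Olfml3* averaged 15.004 RPKM. *P2ry13* and *P2ry12*, at 10.99 and 10.8 RPKM, also overlapped, as did *Gpr34* and *Sall1*, at 5.95 and 5.45 RPKM. *Fcrls* ranked last at 3.69 ± 0.207 RPKM (SD, n = 3). *Sparc* alone took 56.7% to 58.8% of all member counts in the control group, so a sum over these genes mostly follows *Sparc*. *Sparc* encodes a matrix protein that glia and vessel cells also make.

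To ask whether *Ezh2* overexpression was accompanied by a change in resting microglia genes, the 5 libraries were compared with the edgeR quasi-likelihood test. *Fcrls* rose and *Sall1* fell with *Ezh2* overexpression, and the other 8 members were not called. For a call, the fold change had to exceed 1.5 and the Benjamini-Hochberg adjusted p had to be under 0.05. Of all tested genes 3.73% met both, 2.45% as higher and 1.27% as lower. Of the members not called, *P2ry13*, *Cx3cr1* and *Csf1r* were higher and *Sparc* was lower at an adjusted p under 0.05 but with a smaller fold, a level that 16.5% of tested genes reached, 9.38% as higher and 7.07% as lower. The median log2 fold change of the 10 members was 0.092, against -0.0078 over all tested genes. In 5 members both Ezh2 libraries lay above all control libraries, and in 2 both lay below, where 21.5% and 23.4% of tested genes did so, 44.9% in all.

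**Figure D1:**
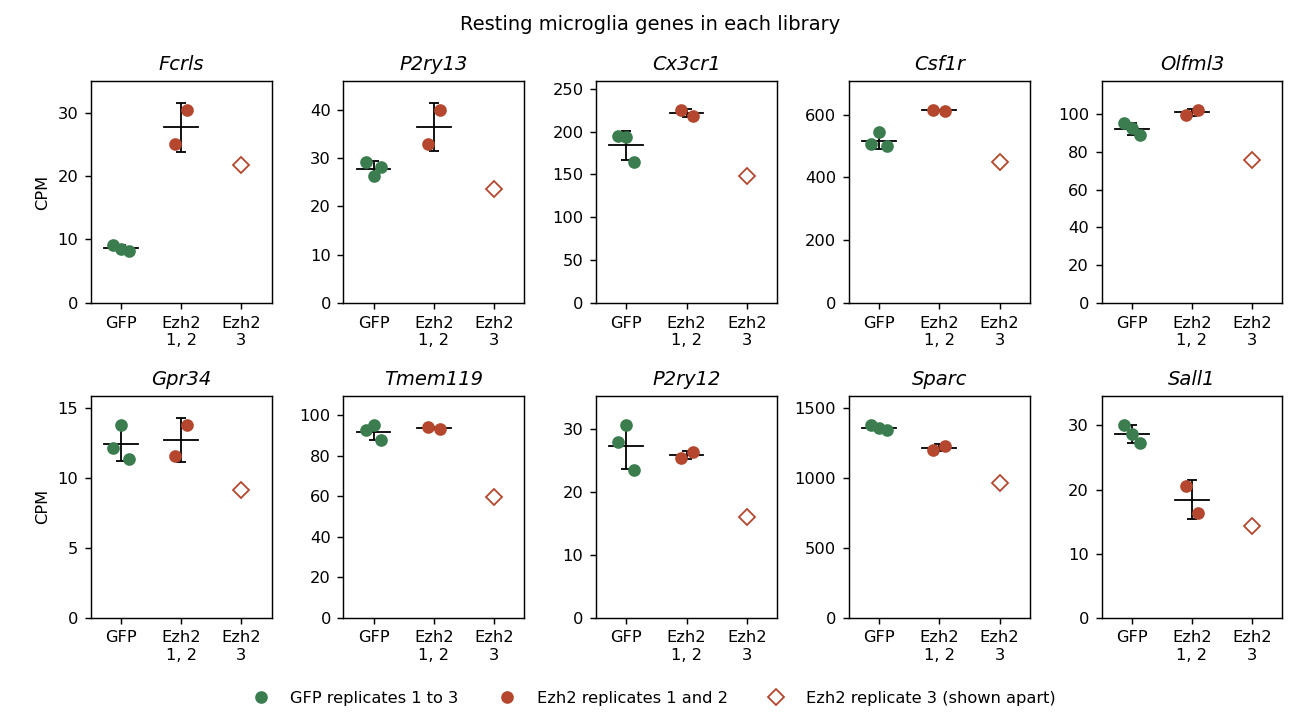
Level of each member gene in CPM (y axis, from 0) by group (x axis). Points are libraries, horizontal lines are means and bars are SD of the control group (n = 3) and of Ezh2 replicates 1 and 2 (n = 2). *Fcrls* was 8.23 to 9.16 CPM in control libraries and 21.7 to 30.4 CPM in the 3 Ezh2 libraries, whereas Ezh2 replicate 3, the open diamond, lay below all control libraries for the other 9 genes.

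*Fcrls* (ENSMUSG00000015852, chromosome 3, 87250758 to 87263738, minus strand, GRCm38) encodes a scavenger receptor of the Fc receptor-like family that is used to separate microglia from blood monocytes. The control libraries held 280, 268 and 253 of its counts, or 9.16, 8.47 and 8.23 CPM. Ezh2 replicates 1 and 2 held 804 and 1065 counts, or 24.97 and 30.4 CPM. Both Ezh2 libraries were above every control library by a wide margin, and the control libraries lay close together. The mean rose, with a control mean of 8.62 ± 0.482 CPM (SD, n = 3) and an Ezh2 mean of 27.7 ± 3.84 CPM (SD, n = 2). The log2 ratio of Ezh2 to control was 1.70 ± 0.11 (SE; edgeR, adjusted p = 4.34e-08). With all 6 libraries the ratio was 1.61 ± 0.13 (SE; edgeR, adjusted p = 0.00131). Other genes of the family, looked up after the values of *Fcrls* were seen, had at most 1.95 RPKM in the control group (*Fcrla*). *Fcrl1*, a receptor of B cells, was 3.82 ± 0.95 CPM (SD, n = 3) in the control group and 6.63 ± 1.3 CPM (SD, n = 2) in Ezh2 replicates 1 and 2, which was called. It was 4.42 CPM in Ezh2 replicate 3 and was not called in the fit to all 6 libraries. *Fcrl5*, *Fcrla* and *Fcrlb* were not called and *Fcrl6* was below the filter on low counts. Reads exchanged between these copies were not tested.

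*Sall1* (ENSMUSG00000031665, chromosome 8, 89027235 to 89044162, minus strand, GRCm38) encodes a zinc finger transcription factor that maintains the resting identity of microglia and is low in most other macrophages. The control libraries held 920, 909 and 837 of its counts, or 30.1, 28.7 and 27.2 CPM. Ezh2 replicates 1 and 2 held 662 and 571 counts, or 20.6 and 16.3 CPM. The groups did not overlap, and the Ezh2 libraries differed from each other by more than the control libraries did. The mean fell, with a control mean of 28.7 ± 1.43 CPM (SD, n = 3) and an Ezh2 mean of 18.4 ± 3.01 CPM (SD, n = 2). The log2 ratio of Ezh2 to control was -0.63 ± 0.10 (SE; edgeR, adjusted p = 0.000311). This lies just past the fold threshold, and without Ezh2 replicate 2 the log2 fold change was -0.48 and the gene was no longer called. It was not called by glmTreat, which tests against the fold threshold itself. In the fit to all 6 libraries it was called lower, with a log2 fold change of -0.71 ± 0.13 (SE) and an edgeR adjusted p of 0.0224. From those 6, the edgeR adjusted p was 0.13, 0.114, 0.111 and 0.056 without GFP replicate 1, 2 or 3 or Ezh2 replicate 2, and the call was lost in each. Its relative *Sall3* was 6.46 ± 0.802 CPM (SD, n = 3) in the control group and 4.39 ± 0.682 CPM (SD, n = 2) in Ezh2 replicates 1 and 2 (edgeR, adjusted p = 0.0527). *Sall2*, at 66.8 ± 1.53 CPM (SD, n = 3) and 63.9 ± 0.214 CPM (SD, n = 2), had a log2 difference of -0.05, with a 95% interval from -0.18 to 0.075. Of 8 Müller glia markers, 0 were called, while 5 were lower and 1, *Crym*, was higher at an adjusted p under 0.05. Their summed level was 26335 to 27188 CPM in the control group and 22174 to 23009 CPM in Ezh2 replicates 1 and 2, with *Glul* alone at 9757 ± 191 CPM (SD, n = 3) and 6918 ± 27.6 CPM (SD, n = 2). The part of Müller glia RNA in the difference of *Sall1* was not tested.

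Promoter sequences of RefSeq (GRCm38.p6) were matched for 7 of the 10 members and are shown for *Sall1*, which was called lower, and *P2ry13* and *Fcrls*, the members that held the motif searched. Polycomb complexes are known to occupy CG-rich promoters, and the transcription factor PU.1, encoded by *Spi1*, recognizes sites around GAGGAA in myeloid cells, so both features were counted on the 250 bases upstream of each start, GAGGAA on both strands. The *Sall1* sequence is chr8:89044163-89044412, minus strand, with CG in capitals. The others have GAGGAA in capitals, namely chr3:59210883-59211132, minus strand, for *P2ry13*, and chr3:87263600-87263677, minus strand, for *Fcrls*. The last is the stretch between the 2 annotated first exons of *Fcrls*, within the 250 bases searched.
Sall1: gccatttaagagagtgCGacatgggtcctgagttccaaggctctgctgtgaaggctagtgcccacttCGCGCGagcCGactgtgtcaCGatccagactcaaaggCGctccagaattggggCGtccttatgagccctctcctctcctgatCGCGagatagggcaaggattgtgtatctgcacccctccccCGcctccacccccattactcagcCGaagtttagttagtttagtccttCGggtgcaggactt
P2ry13: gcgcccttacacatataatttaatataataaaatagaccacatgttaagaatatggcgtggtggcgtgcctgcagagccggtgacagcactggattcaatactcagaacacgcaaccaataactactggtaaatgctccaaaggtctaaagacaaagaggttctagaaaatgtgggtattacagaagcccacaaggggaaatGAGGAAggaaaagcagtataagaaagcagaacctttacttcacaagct
Fcrls: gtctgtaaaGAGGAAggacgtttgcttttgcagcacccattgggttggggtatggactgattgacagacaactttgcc
*Sall1* had 13 CG in this window, more than 68.5% of 32851 promoters of the same length. Upstream of its other annotated starts it had 25 and 30, more than 89.3% and 94.1% of them. The other 6 matched members had 3 to 6 CG, near the median of 6 over all promoters. GAGGAA occurred once each upstream of *P2ry13* and *Fcrls* and not in the windows of *P2ry12*, *Cx3cr1*, *Sall1*, *Olfml3* and *Sparc*, where 23.3% of all promoters held it. These are counts of letters and do not show binding.

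The receptors of nucleotides and lipids were examined next. *P2ry12* and *P2ry13* encode receptors for ADP and lie side by side on chromosome 3 within the span of *Med12l*, which is read from the other strand. *P2ry12* (chromosome 3, 59216272 to 59262871) measured 27.97, 30.7 and 23.5 CPM in the control libraries, by replicate, against 25.5 and 26.3 CPM in Ezh2 replicates 1 and 2. Both Ezh2 libraries lay inside the control range, which was the widest of the members with an SD of 13.3% of the mean. Its log2 difference was -0.07, with a 95% interval from -0.28 to 0.14. *P2ry13* (chromosome 3, 59207892 to 59210882) measured 29.1, 26.2 and 28.1 CPM in the control libraries, by replicate, against 32.9 and 39.9 CPM in Ezh2 replicates 1 and 2. Both Ezh2 libraries were higher than all control libraries but apart from each other. The log2 difference was 0.40 ± 0.09 (SE; edgeR, adjusted p = 0.00603). After Ezh2 replicate 3 was added, the edgeR adjusted p was 0.376. Of 5 genes next to this pair, 4 were tested and 0 were called. *P2ry14* had a log2 difference of -0.0037, with a 95% interval from -0.31 to 0.30, and *Gpr171* one of -0.04, with an interval from -0.23 to 0.15. *Med12l* was 131 ± 2.96 CPM (SD, n = 3) and 102 ± 5.8 CPM (SD, n = 2), with a log2 difference of -0.35 and an edgeR adjusted p of 0.000286, below the fold threshold. *Med12l* shares 9 exonic bases with *P2ry12*. *Gpr34* (chromosome X, 13632089 to 13640858), a receptor for lysophosphatidylserine, measured 12.2, 13.8 and 11.4 CPM in the control libraries, by replicate, against 11.6 and 13.8 CPM in Ezh2 replicates 1 and 2. The groups overlapped almost completely, and the 95% interval of the log2 difference ran from -0.22 to 0.31.

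*Cx3cr1* (chromosome 9, 119901616 to 120069879, minus strand), the receptor for the neuronal chemokine fractalkine, measured 195, 193 and 165 CPM in the control libraries, by replicate, against 225 and 218 CPM in Ezh2 replicates 1 and 2. The groups did not overlap, and GFP replicate 3 was the lowest of the control libraries. Its log2 difference was 0.28 ± 0.06 (SE; edgeR, adjusted p = 0.00679). *Csf1r* (chromosome 18, 61100598 to 61132149, plus strand), the receptor that microglia and other macrophages need to survive, measured 505, 545 and 499 CPM in the control libraries, by replicate, against 615 and 613 CPM in Ezh2 replicates 1 and 2. The Ezh2 libraries were nearly equal and above all control libraries. Its log2 difference was 0.26 ± 0.05 (SE; edgeR, adjusted p = 0.00169), a fold of 1.20 that did not reach the threshold. In all 6 libraries the edgeR adjusted p was 0.576 for *Cx3cr1* and 0.409 for *Csf1r*. *Hmgxb3* shares 873 exonic bases with *Csf1r* on the opposite strand. It was 71.7 ± 3.98 CPM (SD, n = 3) and 71.4 ± 6.46 CPM (SD, n = 2). The libraries were stranded, but whether strand was used in counting is not given in the sources used here.

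Of the ligands of these receptors and of the TGF-β proteins, which maintain *Sall1* and the resting state, 0 of 6 were called. *Csf1* and *Il34*, the ligands of Csf1r, had log2 differences of -0.05, with a 95% interval from -0.18 to 0.08, and 0.35, with an interval from -0.06 to 0.76. *Cx3cl1*, which encodes fractalkine, was 14.8 ± 0.45 CPM (SD, n = 3) and 11.5 ± 1.38 CPM (SD, n = 2), below the fold threshold (edgeR, adjusted p = 0.0383). *Tgfb1* was 23.0 ± 0.019 CPM (SD, n = 3) and 33.6 ± 3.39 CPM (SD, n = 2), with a log2 difference of 0.55 and an edgeR adjusted p of 0.000183. It was called higher in the fit to all 6 libraries (edgeR, adjusted p = 0.0433). Its level in Ezh2 replicate 3, the library with the highest T cell marker sum, was above the mean of Ezh2 replicates 1 and 2. *Tgfb2* and *Tgfb3* went the other way, with log2 differences of -0.15 and -0.38 (edgeR, adjusted p = 0.0484 and 0.00715). For both, Ezh2 replicates 1 and 2 lay below all control libraries, with a fold below the threshold.

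*Tmem119* (chromosome 5, 113793729 to 113800516, minus strand), a membrane protein used to tell microglia from other macrophages, measured 92.6, 95.2 and 87.6 CPM in the control libraries, by replicate, against 93.8 and 93.2 CPM in Ezh2 replicates 1 and 2. Both Ezh2 libraries lay within the control range. The 95% interval of its log2 difference ran from -0.083 to 0.16, the narrowest of the members whose groups overlapped. The secreted protein gene *Olfml3* (chromosome 3, 103722222 to 103738001) measured 95.3, 93.0 and 89.1 CPM in the control libraries, by replicate, against 99.8 and 102 CPM in Ezh2 replicates 1 and 2. It did not overlap between groups, yet its edgeR adjusted p was 0.106. *Sparc* (chromosome 11, 55394500 to 55423183) measured 1378, 1352 and 1340 CPM in the control libraries, by replicate, against 1195 and 1230 CPM in Ezh2 replicates 1 and 2. Both Ezh2 libraries were below all control libraries. The log2 difference of *Sparc* was -0.15 ± 0.04 (SE; edgeR, adjusted p = 0.0283). The Müller glia markers given beside *Sall1* were lower in summed level in the same libraries. Of 11 endothelial and mural markers, the vascular receptor genes *Kdr* and *Flt1* lay below all control libraries, at 2359 ± 77.4 and 917 ± 10.1 CPM (SD, n = 3) against 2157 ± 37.3 and 744 ± 23.6 CPM (SD, n = 2). The other 9 did not, 1 of them was called higher, and the median log2 fold change of the list was 0.072. Among these, the endothelial genes *Pecam1*, *Cldn5*, *Cdh5* and *Tek* averaged only 14.7, 3.51, 3.17 and 2.67 CPM in the control group. Which cells the *Kdr* and *Flt1* counts came from was not tested. The part of Müller glia or vessel cells in the difference of *Sparc* was not tested either.

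**Figure D2:**
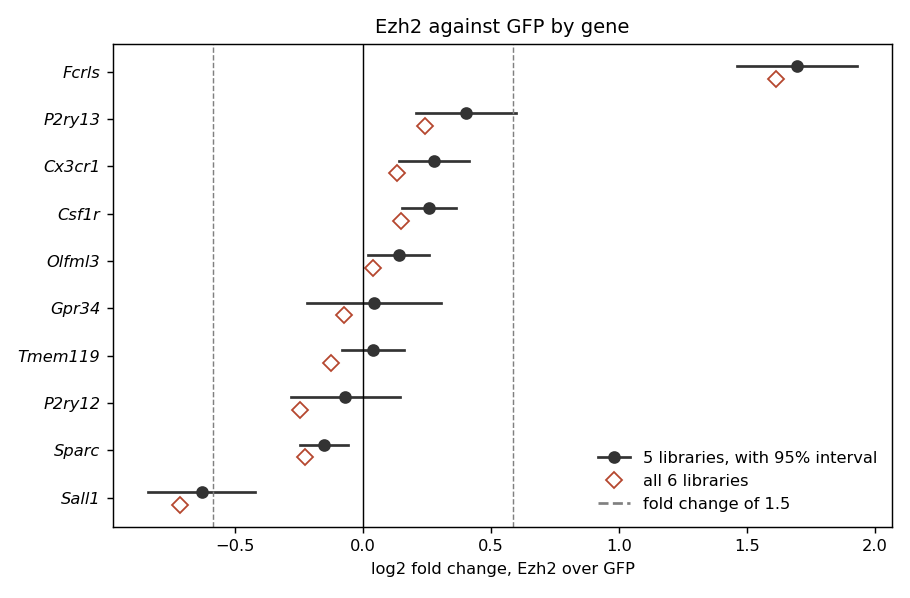
Log2 fold change of Ezh2 over GFP (x axis) for each member gene (y axis). Filled circles with lines are the fit to 5 libraries with its 95% interval, open diamonds are the fit to all 6 libraries, and dashed lines mark a fold change of 1.5. *Fcrls* at 1.70 and *Sall1* at -0.63 are the members beyond the dashed lines in the 5 libraries.

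Ezh2 replicate 3 was compared with the control range for each member. It lay below all 3 control libraries for 9 of the 10 genes and above them for *Fcrls*. These counts were the same after TMM or RLE scaling. Among all tested genes, 47.1% lay below the control range in this library and 31.9% above. *P2ry12* was 16.0 CPM in Ezh2 replicate 3, *Tmem119* 59.8 CPM and *Sall1* 14.4 CPM, each the lowest of the 6 libraries. *Csf1r*, *Cx3cr1* and *Sparc* were 447, 148 and 964 CPM, and *P2ry13*, *Gpr34* and *Olfml3* were 23.5, 9.17 and 75.9 CPM. *Fcrls* at 21.7 CPM was close to Ezh2 replicate 1. When this library was included, 1 member was called higher and 1 lower among 19732 genes, where 1.6% and 0.816% of genes were called, 2.42% in all. By the adjusted p alone the same 2 members passed, against 2.73% of genes as higher and 2.27% as lower, and the median log2 fold change of the members was -0.017. In this library the Müller glia markers summed to 18155 CPM, also below the control range, and 7 of the 8 were below it one by one. Of the endothelial and mural markers, 6 lay below the control range, 2 within and 3 above. The T cell markers were high as given above. Their part in these lower levels was not tested.

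Levels of the members were then set against 11 genes shared by microglia and other myeloid cells (*Aif1*, *Itgam*, *Spi1*, *Tyrobp*, *Fcer1g*, *C1qa*, *C1qb*, *C1qc*, *Ctss*, *Adgre1* and *Laptm5*). Of this list, 2 genes were called higher, 10 reached an adjusted p under 0.05, and the median log2 fold change was 0.46. Their summed level was 2514 to 2789 CPM in the control group, 3427 and 3778 CPM in Ezh2 replicates 1 and 2, and 2630 CPM in Ezh2 replicate 3. *Tyrobp* rose, with a control mean of 77.1 ± 1.35 CPM (SD, n = 3) and an Ezh2 mean of 139 ± 14.8 CPM (SD, n = 2), whereas *Itgam*, an integrin of microglia and macrophages, had a log2 difference of 0.13, with a 95% interval from -0.10 to 0.36.

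Per 1000 counts of these 11 genes, 7 members were lower in both Ezh2 replicates 1 and 2 than in all control libraries, 1 was higher and 2 overlapped. Of all tested genes 67.6% were lower in this way and 2.78% higher, so the share of members that were lower was near that of all genes. *P2ry12* was 10.2, 11.02 and 9.36 counts per 1000 in GFP replicates 1 to 3 and 7.44 and 6.97 in Ezh2 replicates 1 and 2. *Tmem119* was 34.3 ± 0.499 counts per 1000 (SD, n = 3) in the control group and 26.0 ± 1.91 (SD, n = 2) in those Ezh2 libraries. *Sall1* was 10.7 ± 0.369 counts per 1000 (SD, n = 3) and 5.16 ± 1.19 (SD, n = 2). *Fcrls* went the other way, from 3.22 ± 0.164 counts per 1000 (SD, n = 3) to 7.67 ± 0.538 (SD, n = 2). *P2ry13* and *Cx3cr1* overlapped between the groups on this scale. Ezh2 replicate 3 lay below all control libraries for 9 members here too, at 6.09 counts per 1000 for *P2ry12*, 22.7 for *Tmem119* and 5.47 for *Sall1*, and above them for *Fcrls* at 8.25, where 43.6% of tested genes lay below and 31.5% above. On this scale it lay between Ezh2 replicates 1 and 2 for *Sall1*, *Gpr34*, *Csf1r* and *Olfml3*, and outside them for the other members.

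**Figure D3:**
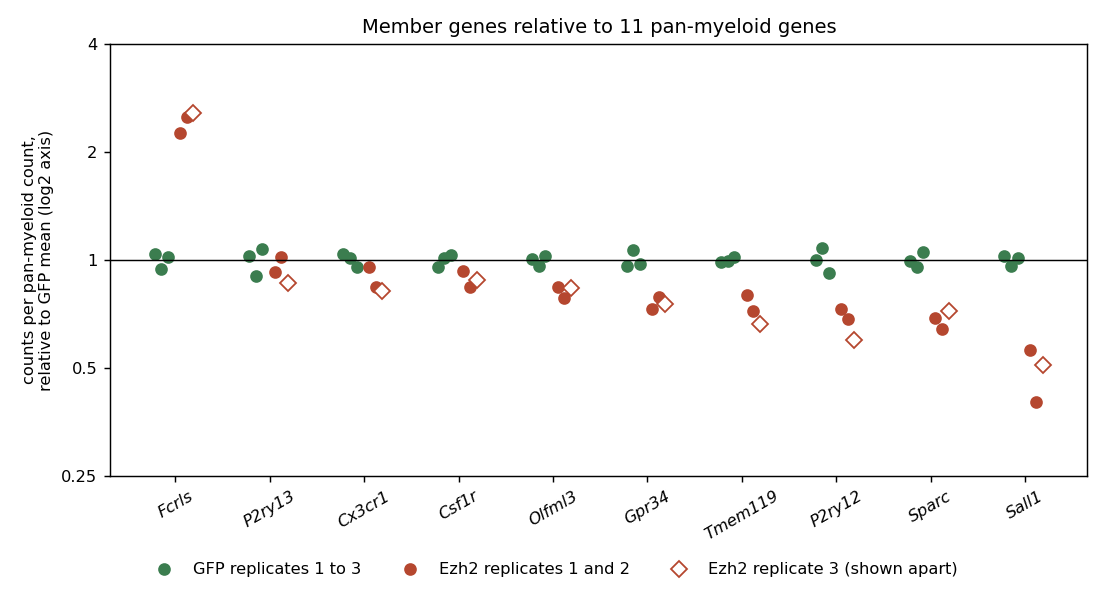
Counts of each member gene per count of 11 pan-myeloid genes, divided by the mean of the control libraries (y axis, log2 scale), for each gene (x axis). Points are libraries. *Fcrls* lies above 1 in the 3 Ezh2 libraries, and *Sall1*, *P2ry12*, *Tmem119*, *Gpr34*, *Sparc*, *Olfml3* and *Csf1r* lie below all control libraries in them.

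Refitting with the pan-myeloid counts as the library scale moved the median log2 fold change of all genes to -0.44, so that 22.6% of tested genes were called, 21.7% as lower and 0.884% as higher. On this scale *Fcrls* was called higher at 1.25 ± 0.14 (SE) and *Sall1* lower at -1.06 ± 0.13 (SE) on the log2 scale. *Sparc* was also called lower, at -0.59 ± 0.10 (SE), and *P2ry12* was at -0.50 ± 0.12 (SE). *P2ry13*, *Cx3cr1* and *Csf1r*, which were higher per library total, had log2 differences of -0.04, -0.15 and -0.18 here. Per library total, the sum of the scaling list was 1.34-fold higher in Ezh2 replicates 1 and 2 than in the control group.

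Further gene lists were used to place the members. Of 18 other genes of resting microglia, 17 were tested, 0 were called higher and 1 lower, with a median log2 fold change of 0.18. *Crybb1*, the gene called lower, is a crystallin gene used as a microglia marker and had means of 4.79 ± 0.127 CPM (SD, n = 3) and 2.89 ± 0.572 CPM (SD, n = 2). In all 6 libraries its edgeR adjusted p was 0.0745. *Siglech*, a sialic acid receptor of microglia, was 18.1 ± 1.43 CPM (SD, n = 3) and 16.1 ± 2.62 CPM (SD, n = 2), with a 95% interval of the log2 difference from -0.40 to 0.07. *Gal3st4* had a count of 0 in every library.

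Of 9 transcription factors of microglia, 1 was called higher and 6 reached an adjusted p under 0.05, with a median log2 fold change of 0.44. *Cebpa*, a factor of the myeloid lineage, rose, with a control mean of 39.1 ± 3.59 CPM (SD, n = 3) and an Ezh2 mean of 62.8 ± 2.16 CPM (SD, n = 2). *Spi1* was 29.9 ± 1.71 CPM (SD, n = 3) and 42.3 ± 0.386 CPM (SD, n = 2), with a log2 difference of 0.51 that stayed below the fold threshold.

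Genes of disease-associated microglia, the phagocytic set, were taken next. Of 16, 10 were called higher and 0 lower, with a median log2 fold change of 0.78. *Gpnmb*, a glycoprotein of phagocytes, rose, with a control mean of 32.8 ± 4.86 CPM (SD, n = 3) and an Ezh2 mean of 473 ± 90.4 CPM (SD, n = 2), and *Fabp5*, a fatty acid binding protein, rose with means of 14.8 ± 0.681 CPM (SD, n = 3) and 63.3 ± 16.9 CPM (SD, n = 2). *Itgax*, *Cst7* and *Cd9* were not called, with log2 differences of -0.0037, -0.18 and -0.05. Of 8 genes of border macrophages, 6 were called higher, with a median log2 fold change of 1.94 over 7 tested. *Stab1*, a scavenger receptor, rose, with a control mean of 60.7 ± 4.69 CPM (SD, n = 3) and an Ezh2 mean of 230 ± 16.8 CPM (SD, n = 2). Their summed level was 85.9 to 96.0 CPM in the control group, 294 and 331 CPM in Ezh2 replicates 1 and 2, and 271 CPM in Ezh2 replicate 3. These are the libraries in which *Fcrls* was higher. The defining border macrophage gene *Cd163* averaged 0.151 CPM in the control group and 0.0155 CPM in Ezh2 replicates 1 and 2, near 0, and *Lyve1* 1.01 and 0.633 CPM, without a call. Whether cells of this kind contributed to *Fcrls* was not tested.

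**Figure D4:**
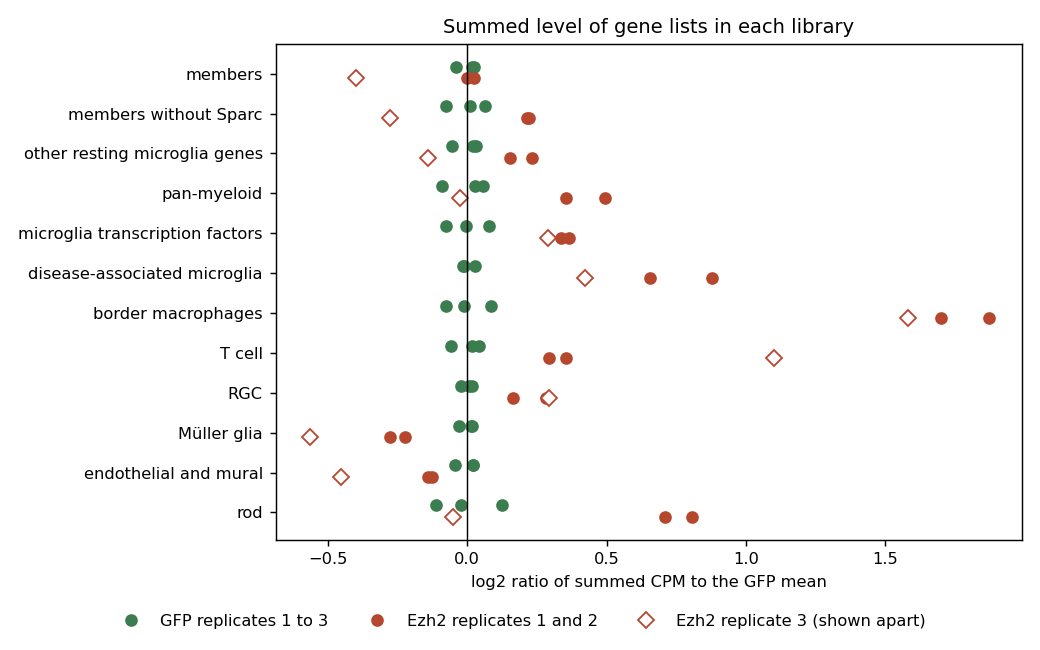
Log2 ratio of the summed CPM of each gene list to its mean in the control group (x axis) by list (y axis). Points are libraries. In Ezh2 replicates 1 and 2 the 10 members summed to 2344 and 2383 CPM, inside the control range of 2279 to 2386 CPM, but without *Sparc* to 1149 and 1153 CPM, above the control range of 939 to 1034 CPM. The other resting microglia, pan-myeloid, microglia transcription factor, disease-associated and border macrophage lists also lay to the right of all control libraries in them. So did the T cell, RGC and rod lists, whereas the Müller glia list and the endothelial and mural list lay to the left. The endothelial and mural sum, 3655 to 3822 CPM in the control group, was mostly *Kdr* and *Flt1*, at 2359 and 917 CPM. The median log2 fold change of that list was 0.072.

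Of the monocyte and neutrophil genes, *S100a8* and *S100a9*, which define neutrophils, stayed below the filter on low counts. *Ccr2*, the chemokine receptor of blood monocytes, was 57.7 ± 6.02 CPM (SD, n = 3) and 80.6 ± 1.09 CPM (SD, n = 2), with a log2 difference of 0.49 below the fold threshold. Of 11 endothelial and mural genes 1 was called higher, of 5 astrocyte genes 1, of 10 RGC genes 1, of 8 rod genes 4 and of 11 T cell genes 1, and 0 genes of these lists were called lower.

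The genes outside the list whose pattern over the 6 libraries was most like the mean pattern of the members were *Ptgs1*, *Elovl4*, *Pold3*, *Mrpl4* and *Clec14a*, with Pearson r between 0.993 and 0.995 among 16493 candidates. All libraries entered this ranking, including Ezh2 replicate 3, and with 6 points that share 2 groups and their depth it is a description only. Among the members themselves, *Fcrls* and *Sall1* were the pair most opposed, with r = -0.89 over the same 6 libraries. Both were called, in opposite directions, so the difference between the groups is part of this r.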

How the data were processed

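Raw read counts per Ensembl gene were deposited by the authors as 1 table of 6 libraries of stranded total RNA. The submitters' processing notes name STAR 2.7.0d and build GRCm38, without their roles. The counting program, annotation release, strand setting and filters are not given in the sources used here. Count columns were matched to samples by their labels, and 0 columns were left over. Nothing says whether replicates came from separate animals, so p values measure the spread between these libraries. Library pairs of a group differed by more than sampling noise. The chi-square per degree of freedom was 5.27 to 6.58 between GFP libraries and 8.13 between Ezh2 replicates 1 and 2. Between Ezh2 replicate 3 and Ezh2 replicates 1 and 2 it was 55.5 and 62.9.

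Symbols, coordinates and exon lengths came from GENCODE M21 (GRCm38), which matched 55480 of 55573 identifiers. Low counts were removed by filterByExpr. The group effect was then tested in edgeR 4.0.16 (R 4.3.3; TMM, glmQLFit and glmQLFTest), two-sided, with Benjamini-Hochberg adjustment over all tested genes. SE and 95% intervals were taken from the F statistic. The fit was tested on simulated counts. A count of 0 allows up to 3 counts, or 0.0834 to 0.0981 CPM, for counting error only.

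The members, gene lists and tests were chosen with earlier results of these data known. Genes named are the members, list genes that were called or that a sentence turns on, and the 5 genes most alike in pattern among those averaging at least 1 CPM (log2 CPM, prior count of 2). Relatives and antisense partners of members were chosen after their values were seen. Some list genes are not reported here. As alternatives, all 6 libraries were fitted, single libraries were dropped, and the replicate number was entered as a block. Others were limma-voom (limma 3.58.1), DESeq2 1.42.0, RLE factors, library totals, pan-myeloid scaling, other filters on low counts, other thresholds and, chosen after seeing the data, a robust quasi-likelihood fit. Pictures were drawn with matplotlib 3.10.9.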

Additional observations from a re-analysis of the deposited data

Results flagged for a closer look

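Ezh2 replicate 3 was not used in the comparison of 5 libraries, and 1 member stood above the control samples in it. *Fcrls* was 21.7 CPM there, against at most 9.16 CPM in the control group.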

How the results depend on the processing

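*Fcrls* was called higher in every alternative tried, with a log2 fold change from 1.25 to 1.84 and, in the fits with an adjusted p (edgeR, DESeq2 or limma-voom), a largest value of 0.0204. *Sall1* stayed lower in every alternative, from -1.06 to -0.48. It was not called by glmTreat, nor in 5 fits that left out a library, namely without Ezh2 replicate 2 (-0.48, 1 library then standing for its group) and in the fits to all 6 libraries without GFP replicate 1 (-0.68, edgeR adjusted p 0.13), GFP replicate 2 (-0.71, 0.114), GFP replicate 3 (-0.75, 0.111) or Ezh2 replicate 2 (-0.68, 0.056). The number of members called lower therefore ran from 0 to 1 when a library was left out. It was 0 with glmTreat, 2 under pan-myeloid scaling, and 2 with the adjusted p alone, where 4 were higher. The fits that left out a library also held fewer samples, and the cause of these differences was not tested.

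Calls among all genes numbered 754 with 5 libraries and 477 with 6, 274 with 6 and the replicate block, 4567 under pan-myeloid scaling, 3330 by the adjusted p alone and 212 by glmTreat. From 6 libraries, leaving out GFP replicate 1, 2 or 3 gave 93, 123 or 95 calls and leaving out Ezh2 replicate 1 or 2 gave 293 or 386. From 5 libraries, leaving 1 out gave 597 to 755. Whether the replicate numbers pair the libraries was not decided. For GFP and Ezh2 libraries with equal numbers, the deviations had correlations of -0.018, -0.021 and -0.024. These values cannot exclude pairing, since Ezh2 replicate 3 stood far from the other Ezh2 libraries and unequal numbers were not compared. With the replicate block, 1 member was called higher and 1 lower in the 5 libraries and in all 6.

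Signs turned for members whose difference was small and, under pan-myeloid scaling, also for *P2ry13*, *Cx3cr1* and *Csf1r*. With all 6 libraries *Gpr34* was -0.074 and *Tmem119* -0.12, and adding the replicate block gave -0.085 and -0.15. With 5 libraries and the block *Gpr34* was -0.020. Across fits with 1 library left out, *Gpr34* ran from -0.22 to 0.18 (-0.089, -0.13 and -0.063 from 6 libraries without GFP replicate 1, GFP replicate 3 and Ezh2 replicate 1, and -0.10 from 5 without Ezh2 replicate 2). *Tmem119* ran from -0.22 to 0.064 (-0.096, -0.16 and -0.21 from 6 without GFP replicate 2, GFP replicate 3 and Ezh2 replicate 1). *P2ry12* ran from -0.37 to 0.020 (-0.17 from 5 without GFP replicate 3) and *Olfml3* from -0.032 to 0.17. Under pan-myeloid scaling the values were -0.043 for *P2ry13*, -0.40 for *Gpr34*, -0.15 for *Cx3cr1*, -0.18 for *Csf1r*, -0.40 for *Tmem119*, -0.30 for *Olfml3* and, now called, -0.59 for *Sparc*. Over single members and alternatives, 180 values kept their direction and their side of the threshold, 24 turned sign, 5 lost the call and 1 gained it. The adjusted p alone and glmTreat, whose counts are given above, are not part of this tally.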
